A study of Mus musculus with 8 samples.

Results

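This account follows 6 genes, Nxpe4, Pmaip1, Ctla2a, Itih5, Frmd5 and Prorp, through the cell types of the striatum in 8 inbred mouse strains. They were picked out of 32285 genes because their nuclear RNA level in endothelial nuclei varied most strongly with strain, so their strain differences in endothelium are given below as a description, without a test. All 6 were found in the deposited matrices. Nuclei were isolated from the striatum of 32 mice aged 12 weeks and profiled by single-nucleus RNA sequencing together with chromatin accessibility (10x Multiome). The wild-derived strains were CAST/EiJ, PWK/PhJ and WSB/EiJ, and the classical ones C57BL/6, A/J, 129S1/SvImJ, NZO/HlLtJ and NOD/ShiLtJ. Each strain had 4 mice and each batch 4 males and 4 females, with no treatment or engineered allele in the labels. Sex was not in the fits, and its part in the strain differences was not tested. The deposited table writes C57BL/6NJ and the series' text C57BL/6J, so the strain is called C57BL/6 here. In every one of the 4 batches, nuclei from 8 mice, 1 per strain, were mixed, and a nucleus was assigned to its mouse by its batch and the deposited strain call. Of 89339 barcodes, 55672 carried an annotation to 1 of 18 clusters, and 851 of these were endothelial, 6 to 90 per mouse.

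Brain endothelial cells line the capillaries, are sealed by tight junctions and form the blood-brain barrier. They take up nutrients through carriers, restrict the passage of proteins and, with mural cells, set the calibre of the vessel. The genes followed here belong to unrelated families. Pmaip1 (Noxa) encodes a BH3-only member of the BCL2 family that binds Mcl1 and promotes apoptosis. Ctla2a encodes an inhibitor of cathepsin L that resembles a cathepsin propeptide. Itih5 encodes a heavy chain of the inter-alpha-trypsin inhibitor family, secreted proteins that bind hyaluronan in the extracellular matrix. Frmd5 encodes a FERM-domain protein, a class that links membrane proteins to the actin skeleton. Prorp encodes the catalytic subunit of mitochondrial RNase P, which cuts the 5′ leader off mitochondrial tRNA precursors. Nxpe4 belongs to the neurexophilin and PC-esterase domain family.

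In the RefSeq gene table of GRCm38.p6 the genes lie on 5 chromosomes: Nxpe4 at chr9:48162004-48400025, Ctla2a at chr13:60934155-60936625, Itih5 at chr2:10153536-10256529, Frmd5 at chr2:121545529-121807087 and Prorp at chr12:55302637-55382492. Promoter sequences from RefSeq, covering 250 bases before to 50 bases after a listed start, were at hand for 5 of the 6. The deposited list of 291715 accessible regions, called by the authors over all nuclei, held a region overlapping the listed promoters of Ctla2a, Itih5, Frmd5 and Prorp and none overlapping that of Nxpe4. Of all 32851 listed promoters, 53.1% overlapped such a region. The promoters of Ctla2a and its near copy Ctla2b are shown because reads of such close copies can be split between them, that of Nxpe4 because no accessible region overlapped this window, and that of Itih5 for contrast, since it had one and its gene ran in another strain order. They are read 5′ to 3′ on the gene's strand, with capitals marking each AGGAAG (a core bound by ETS factors with its flanking bases, searched on both strands and so also as CTTCCT) and each TATAAA (likewise TTTATA).
Ctla2a, chr13:60936576-60936875, minus strand: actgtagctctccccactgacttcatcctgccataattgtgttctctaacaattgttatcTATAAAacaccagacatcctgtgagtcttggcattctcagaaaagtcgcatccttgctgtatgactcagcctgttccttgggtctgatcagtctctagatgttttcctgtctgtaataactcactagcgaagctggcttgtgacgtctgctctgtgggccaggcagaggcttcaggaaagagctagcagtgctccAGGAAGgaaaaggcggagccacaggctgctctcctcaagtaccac
Ctla2b, chr13:60897398-60897697, minus strand: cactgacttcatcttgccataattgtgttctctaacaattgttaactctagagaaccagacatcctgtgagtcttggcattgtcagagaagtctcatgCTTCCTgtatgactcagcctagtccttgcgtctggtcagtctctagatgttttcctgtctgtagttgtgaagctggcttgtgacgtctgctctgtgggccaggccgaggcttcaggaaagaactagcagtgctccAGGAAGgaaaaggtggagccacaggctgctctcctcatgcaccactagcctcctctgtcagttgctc
Nxpe4, chr9:48361791-48362090, plus strand: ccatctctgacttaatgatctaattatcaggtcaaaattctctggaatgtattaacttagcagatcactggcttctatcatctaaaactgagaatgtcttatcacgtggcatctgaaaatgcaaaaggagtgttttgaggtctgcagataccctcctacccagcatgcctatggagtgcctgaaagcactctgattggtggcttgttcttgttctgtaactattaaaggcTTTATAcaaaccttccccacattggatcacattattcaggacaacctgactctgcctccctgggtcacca
Itih5, chr2:10153293-10153592, plus strand: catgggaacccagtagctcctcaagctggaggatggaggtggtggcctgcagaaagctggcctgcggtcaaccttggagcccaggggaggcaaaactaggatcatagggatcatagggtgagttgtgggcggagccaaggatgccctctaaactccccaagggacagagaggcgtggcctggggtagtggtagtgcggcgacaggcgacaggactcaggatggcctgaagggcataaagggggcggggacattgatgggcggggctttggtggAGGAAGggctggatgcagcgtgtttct
The Ctla2a and Ctla2b promoters were identical at 256 of 278 aligned bases (92.1%). The transcripts of these genes, from which reads come, were not compared. TATAAA was in the Ctla2a window and not in that of Ctla2b, which held AGGAAG 2 times against 1 in Ctla2a. The Nxpe4 window was 42.3% G and C with 1 CpG, and the Itih5 window 60.7% with 9. AGGAAG was found in 35.4% and TATAAA in 13.6% of all 32851 promoters, so a match is a description of the letters and no more. The shorter ETS core without these flanks was not counted, and a window without AGGAAG can still hold it. The listed Nxpe4 start lies inside the annotated span of the gene, over which 34 accessible regions were listed, so the window says nothing of other starts. The Frmd5 window held AGGAAG 2 times and the Prorp window held neither motif.

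For expression, the counts of unique molecular identifiers (UMIs, 1 per captured RNA molecule) of a mouse's nuclei in a cluster were summed into 1 library. A level is given as the count scaled to a library total of 1000000 (CPM), corrected by the trimmed mean of M-values (TMM) where strains are compared. A library needed at least 10 nuclei. In endothelium 29 of 32 libraries remained, and A/J, CAST/EiJ and WSB/EiJ lost their batch 3 mouse, which had 7, 8 and 6 nuclei. Batch 3 was the shallowest, with 22866 to 83614 endothelial counts per library against 92020 to 433270 in the other batches. It also differed in composition. Summed endothelial markers were at 4596 to 11550 CPM in the 8 endothelial libraries of batch 3 against 9204 to 22461 CPM in the other 24. Summed mural markers were at 138 to 612 CPM against 1169 to 6344 CPM, and summed projection neuron markers at 3551 to 7058 CPM against 1214 to 4225 CPM. In all 5 strains with a batch 3 library in the comparison, Ctla2a and Itih5 were lowest in batch 3, and Pmaip1 was in 4 of them. For these and other genes some strain means are given without that batch too. The part of batch 3's composition in these values was not tested. Barcode sequences were shared with a nucleus of another batch by 3048 nuclei. Nothing in the labels says whether a strain's mice came from separate litters, and p-values measure the spread between these mice.

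The name of the cluster was checked against marker genes. All 18 endothelial markers were at their highest level of the 18 clusters in endothelium, with a summed level of 17434 CPM. Of 10 mural markers, 2 were also highest there, Rgs5 at 1854 CPM and Higd1b at 81.9 CPM. In the mural cluster Rgs5 was at 403 CPM and Higd1b at 60.8 CPM. The 10 mural markers summed to 3154 CPM in endothelium, and the part of mural RNA in these libraries was not tested. The fibroblast markers summed to 102 CPM in endothelium, and Slc47a1 among them was at 0.

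Among the 4986 genes tested in endothelium, 161 (3.23%) passed the strain term at an adjusted p under 0.05 in edgeR, and the 6 genes are among them by choice. Their F statistics come from the term that chose them, are given to describe that choice and are no test. They ranked from 3 to 9: Nxpe4 was highest of the 6 (F = 31.3), then Pmaip1 (30.0), Ctla2a (24.6), Prorp (23.7), Itih5 (22.1) and Frmd5 (19.1). Cwc22 (F = 93.5) and B530045E10Rik (35.3), ranked above them, and Ftl1-ps1 (28.1), ranked among them, were not picked, and Gsta4 (18.4) came next after Frmd5. Pmaip1 and Prorp passed the filter on low counts in endothelium through the 3 CAST/EiJ libraries where they were high, and so had to differ. CAST/EiJ held the highest strain mean for 5 of the 6 genes and the lowest for Itih5. It was also highest for B530045E10Rik and Ftl1-ps1, and the share of all genes with CAST/EiJ at an extreme was not counted. The submitters name the same reference, mm10/GRCm38, for all strains. The part of a strain's sequence differences from that reference in these levels was not tested. A summed count alone does not tell fewer expressing nuclei from less RNA per nucleus. The share of endothelial nuclei with a UMI, which also depends on depth, differed too. It was 59.3% in CAST/EiJ against 12.9% in A/J for Nxpe4, 35.8% against 4.09% for Pmaip1 and 44.4% against 5.26% for Prorp. For Ctla2a it was 70.4% in CAST/EiJ and 36.7% in PWK/PhJ, and for Frmd5 91.4% in CAST/EiJ and 27.0% in 129S1/SvImJ. For Itih5 it was 52.2% in 129S1/SvImJ and 18.5% in CAST/EiJ. In CAST/EiJ and A/J, nuclei with a UMI held 172 counts in 48 and 26 in 22 for Nxpe4, 139 in 29 and 7 in 7 for Pmaip1, and 124 in 36 and 10 in 9 for Prorp. In CAST/EiJ, Ctla2a had 1127 in 57 (PWK/PhJ, 78 in 29). Frmd5 had 402 in 74 and Itih5 20 in 15 there (129S1/SvImJ, 98 in 31 and 222 in 60). These counts depend on depth too, and their part and that of the share were not tested. Median depth was 4557 UMIs in CAST/EiJ, 3047 in A/J, 3276 in 129S1/SvImJ and 4715 in PWK/PhJ.

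Pmaip1, the apoptosis gene (chr18:66458604-66465558), was highest in CAST/EiJ endothelium. The 3 CAST/EiJ mice of batches 1, 2 and 4 had 337, 554 and 233 CPM, from 40, 76 and 23 counts, a mean of 374 ± 164 CPM (SD, n = 3). No mouse of another strain exceeded 81.4 CPM, and strain means there ran from 8.78 ± 8.08 CPM in A/J (n = 3) to 43.4 ± 19.9 CPM in NOD/ShiLtJ (n = 4). Pmaip1 was lowest in batch 3 in 4 of the 5 strains with a library of that batch, and the CAST/EiJ mean held none. Without batch 3 the next means were 57.8 ± 33.1 CPM in PWK/PhJ and 51.3 ± 14.8 CPM in NOD/ShiLtJ (n = 3 each). The 3 A/J mice had 0, 10.4 and 15.9 CPM. The kept CAST/EiJ mice therefore lay above every mouse of the other 7 strains. The fitted difference between CAST/EiJ and A/J was 5.20 on the log2 scale, between 4.95 and 5.67 over settings of the fit. The CAST/EiJ library of batch 3, left out for its 8 nuclei, held 0 Pmaip1 counts among 36273, which allows up to 3 counts. Without TMM scaling its 0 CPM lay within the range of the other strains (0 to 70.1 CPM) and below the kept 3 (204 to 466 CPM). With 5 nuclei per library, which adds that mouse, Pmaip1 did not pass the filter on low counts, so the range above does not include it. Of the 81 CAST/EiJ endothelial nuclei, 29 carried a Pmaip1 UMI, at most 14 in 1 nucleus, with a median depth of 4557 UMIs. In astrocytes, at a median depth of 2221 UMIs, 0 of 4748 nuclei carried one, which allows a share of nuclei with a UMI, not of nuclei expressing the gene, of up to 0.0632%.

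Prorp, the mitochondrial RNase P subunit, followed the same strain. CAST/EiJ mice had 210.5, 474 and 334 CPM, from 25, 65 and 33 counts, a mean of 339 ± 132 CPM (n = 3). The next strain, C57BL/6, was at 40.7 ± 32.0 CPM (n = 4), its highest mouse at 87.8 CPM. The 6 remaining strain means lay between 14.0 ± 5.39 CPM in A/J (n = 3) and 24.2 ± 14.2 CPM in NZO/HlLtJ (n = 4), on 0 to 7 counts per mouse. No mouse of another strain reached the lowest kept CAST/EiJ mouse. CAST/EiJ exceeded A/J by 4.47 on the fitted log2 scale (4.39 to 4.52 over settings of the fit) and by 4.00 with levels taken as a mean over nuclei. A Prorp UMI was seen in 36 of the 81 CAST/EiJ nuclei, and the left-out CAST/EiJ library of batch 3 held 1 count, 27.6 CPM without TMM scaling, within the range of the other strains (0 to 76.1 CPM) and below the kept 3 (181 to 398 CPM). With 5 nuclei per library, which adds that mouse, Prorp did not pass the filter on low counts and had no fitted value.

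Ctla2a, the cathepsin L inhibitor, was again highest in CAST/EiJ, at 3005, 3971 and 2086 CPM in the 3 kept mice (3021 ± 942 CPM). The highest mouse of any other strain, from WSB/EiJ, was at 947 CPM. The left-out CAST/EiJ library of batch 3 held 19 counts, 524 CPM without TMM scaling, against 1831 to 3340 CPM on that scale in the 3 kept mice and below the highest A/J (802 CPM) and WSB/EiJ (835 CPM) mice. A/J (779 ± 136 CPM, n = 3) and WSB/EiJ (740 ± 191 CPM, n = 3) came next, neither with a batch 3 mouse, and PWK/PhJ was lowest with 407, 149, 93.2 and 192 CPM (210 ± 137 CPM, n = 4). Without batch 3 the PWK/PhJ mean was 249 ± 138 CPM (n = 3). The other 4 strain means lay between 380 ± 156 and 442 ± 288 CPM, within one another's spread, and between 442 ± 117 and 557 ± 214 CPM without batch 3. CAST/EiJ exceeded PWK/PhJ by 3.61 on the fitted log2 scale (3.21 to 4.00 over settings of the fit). A Ctla2a UMI was found in 57 of 81 CAST/EiJ nuclei and up to 106 in 1 nucleus. Over all strains 406 of 851 endothelial nuclei (47.7%, median depth 3821 UMIs) carried one, against 1.72% of Drd1+ neurons at the greater median depth of 6505 UMIs.

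Ctla2b, the near copy of Ctla2a, was looked up after the values of Ctla2a were seen and named here after its own were seen. The difference between the copies was not tested. Ctla2b rested on 12 to 37 counts per strain. Its endothelial mean was 70.9 ± 11.2 CPM for CAST/EiJ (n = 3) and 66.9 ± 34.4 CPM for PWK/PhJ (n = 4), the lowest strain of Ctla2a, and these mice overlapped. A/J stood at 60.7 ± 9.56 CPM and WSB/EiJ at 55.8 ± 48.2 CPM (n = 3 each), and the means of the classical strains with 4 mice lay at 23.4 to 34.2 CPM. Reads of close copies can be split between them by the counting. The transcripts of the copies were not compared here, so the Ctla2a and Ctla2b levels are uncertain to an unknown degree.

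Itih5, the hyaluronan-binding matrix protein, ran the other way. Its lowest strain was CAST/EiJ, with 42.1, 36.4 and 81.0 CPM (53.2 ± 24.3 CPM, n = 3), and PWK/PhJ overlapped it at 76.2 ± 54.4 CPM (n = 4), and at 93.8 ± 50.7 CPM without batch 3. WSB/EiJ, the third wild-derived strain, was at 148 ± 44.5 CPM (n = 3). The highest was 129S1/SvImJ with 492, 601, 121 and 481 CPM in batches 1 to 4 (424 ± 209 CPM), where the batch 3 mouse was the low one. Without batch 3, 129S1/SvImJ stood at 524 ± 66.6 CPM, C57BL/6 at 499 ± 43.3 CPM and NOD/ShiLtJ at 457 ± 69.0 CPM (n = 3 each), 3 strains whose mice overlapped and all lay above every mouse of the other 5 strains. NZO/HlLtJ (246 ± 96.7 CPM, n = 4, and 287 ± 61.9 CPM without batch 3) and A/J (235 ± 38.3 CPM, n = 3) lay in between. 129S1/SvImJ exceeded CAST/EiJ by 3.28 on the fitted log2 scale (2.92 to 3.73 over settings of the fit). Summed fibroblast markers had the same extremes, 192 ± 231 CPM in 129S1/SvImJ and 16.5 ± 8.70 CPM in CAST/EiJ, and fibroblasts were the cluster with the highest Itih5 level. That marker sum did not pass a test by strain (permutation test, 29 libraries, adjusted p = 0.482 over 10 measures), and its part in the Itih5 difference was not tested.

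Frmd5, the FERM-domain gene, was high in CAST/EiJ and PWK/PhJ together. CAST/EiJ mice had 1010.2, 1086 and 1154 CPM (1083 ± 72.1 CPM, n = 3), and PWK/PhJ mice 849, 846, 675 and 1505 CPM (969 ± 366 CPM, n = 4). These strains overlapped. The left-out CAST/EiJ library of batch 3 was at 524 CPM without TMM scaling, against 871 to 1013 CPM on that scale in the kept 3. C57BL/6 came next at 527 ± 158 CPM, with 1 mouse at 753 CPM, and the lowest strain was 129S1/SvImJ, with 171, 161, 334 and 273 CPM (235 ± 83.4 CPM, n = 4). NZO/HlLtJ (386 ± 85.7 CPM), NOD/ShiLtJ (357 ± 115 CPM), WSB/EiJ (338 ± 148 CPM) and A/J (273 ± 24.3 CPM) had means in between. Without batch 3 the means were 346 ± 35.4 CPM in NZO/HlLtJ, 306 ± 62.6 CPM in NOD/ShiLtJ and 202 ± 62.1 CPM in 129S1/SvImJ (n = 3 each). C57BL/6 was then at 531 ± 193 CPM and PWK/PhJ at 1066 ± 379 CPM (n = 3 each). CAST/EiJ exceeded 129S1/SvImJ by 2.35 on the fitted log2 scale (2.17 to 2.47 over settings of the fit) and by 2.82 with levels taken as a mean over nuclei. Oligodendrocytes are the richest source of Frmd5 RNA here, and summed oligodendrocyte markers in the endothelial libraries were at 2329 ± 1059 CPM in 129S1/SvImJ (1579 to 3855 CPM), 1732 ± 523 CPM in CAST/EiJ (1171 to 2205 CPM) and 1566 ± 160 CPM in PWK/PhJ (1351 to 1710.2 CPM). These ranges overlapped, and the part of these markers in the Frmd5 difference was not tested.

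Nxpe4 was high in 3 strains. CAST/EiJ mice had 463, 517 and 405 CPM (462 ± 56.1 CPM, n = 3), C57BL/6 stood at 356 ± 53.4 CPM (n = 4) with its highest mouse at 408 CPM, and WSB/EiJ at 219 ± 82.1 CPM (n = 3). The CAST/EiJ and C57BL/6 mice overlapped. Without TMM scaling the left-out CAST/EiJ library of batch 3 was at 165 CPM, from 6 counts, against 356 to 435 CPM in the kept 3. The other 5 strains lay between 30.7 ± 20.5 CPM in A/J (7.98, 36.6 and 47.7 CPM) and 86.0 ± 65.8 CPM in 129S1/SvImJ, where the batch 3 mouse had 182 CPM and overlapped WSB/EiJ. The NZO/HlLtJ mouse of batch 3, at 158 CPM, overlapped it too. Without batch 3 the means were 53.9 ± 17.9 CPM in 129S1/SvImJ and 43.9 ± 10.4 CPM in NZO/HlLtJ (n = 3 each). The left-out A/J library of batch 3 held 5 counts, 89.8 CPM without TMM scaling, against 6.86 to 41.3 CPM in the kept 3. It lay above every NOD/ShiLtJ mouse on that scale (at most 67.2 CPM), so the place of A/J as lowest strain rests on the kept mice. CAST/EiJ exceeded A/J by 3.86 on the fitted log2 scale (3.45 to 4.10 over settings of the fit) and by 4.91 with levels taken as a mean over nuclei. Nxpe2, a family member annotated inside the span of Nxpe4, shared the pattern in part: it was at 58.7 ± 16.6 CPM in C57BL/6, 52.4 ± 19.6 CPM in CAST/EiJ and 67.8 ± 5.28 CPM in WSB/EiJ, against means of 4.16 to 13.9 CPM in 4 other strains and 28.2 ± 43.6 CPM in PWK/PhJ, where 1 mouse at 93.2 CPM lay above every mouse of the 3 strains just named. It did not pass the filter on low counts. Whether the counting used strand is not given in the sources used here, so the levels of overlapping genes such as Nxpe4 and Nxpe2 are uncertain.

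**Figure D1:**
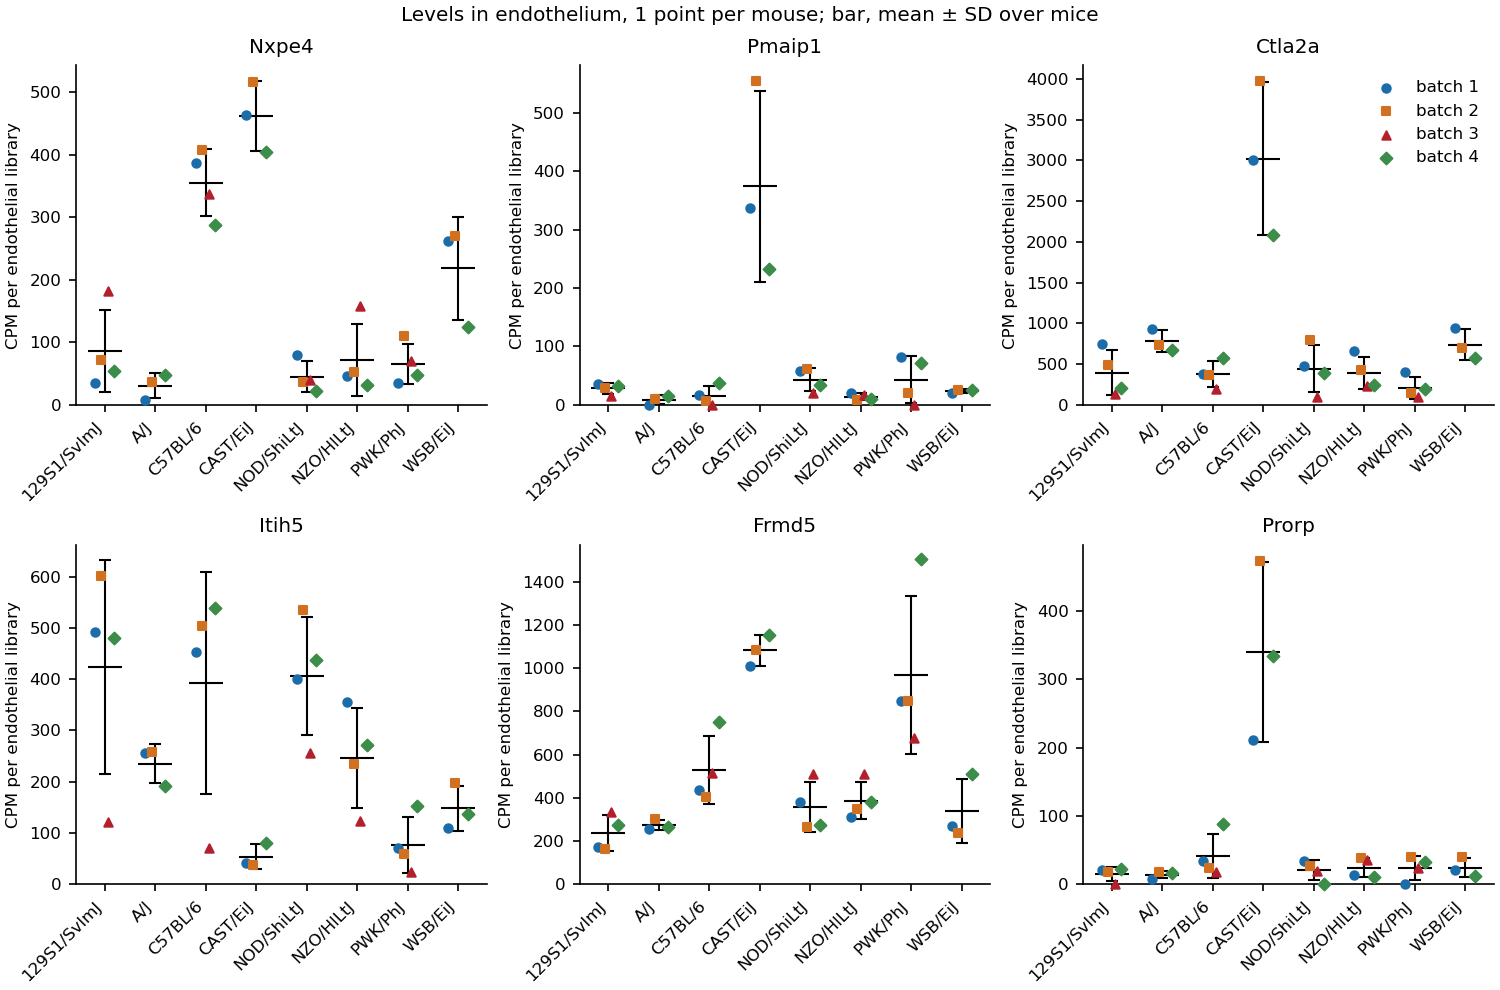
Level of each gene in endothelial nuclei by strain, in TMM-scaled CPM on linear axes from 0; each point is 1 mouse, its shape and colour give the batch, and the bars are the mean ± SD over the mice of a strain with at least 10 nuclei. The 3 CAST/EiJ mice plotted sit above all others for Pmaip1, Prorp and Ctla2a, share the top with PWK/PhJ for Frmd5 and with C57BL/6 for Nxpe4, and are low with PWK/PhJ for Itih5.

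The marker and depth measures of the endothelial libraries that were followed beside these levels did not pass a test by strain (10 measures, permutation tests, lowest adjusted p = 0.482). The summed endothelial markers were highest in CAST/EiJ, at 21117 ± 1131 CPM, and lowest in PWK/PhJ, at 13418 ± 6633 CPM. Mural markers were lowest in CAST/EiJ (2258 CPM) and highest in C57BL/6 (3870 CPM). Projection neuron markers were lowest in CAST/EiJ (1925 CPM, 1476 to 2317 CPM per mouse) and highest in PWK/PhJ (3935 CPM, 2028 to 6711 CPM). PWK/PhJ and C57BL/6 had a batch 3 library in these means and CAST/EiJ had none. Batch 3 ran low for endothelial and mural markers and high for projection neuron markers, so these means are not like for like. The part of these marker differences in the levels of the 6 genes was not tested. CAST/EiJ and A/J had no batch 3 library in the fit, so the spans of Nxpe4, Pmaip1 and Prorp hold no batch 3 mouse and leaving out that batch is no check of them. Without it the spans whose other strain did have such a mouse were 3.66 for Ctla2a, 3.33 for Itih5 and 2.47 for Frmd5 on the log2 scale.

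**Figure D2:**
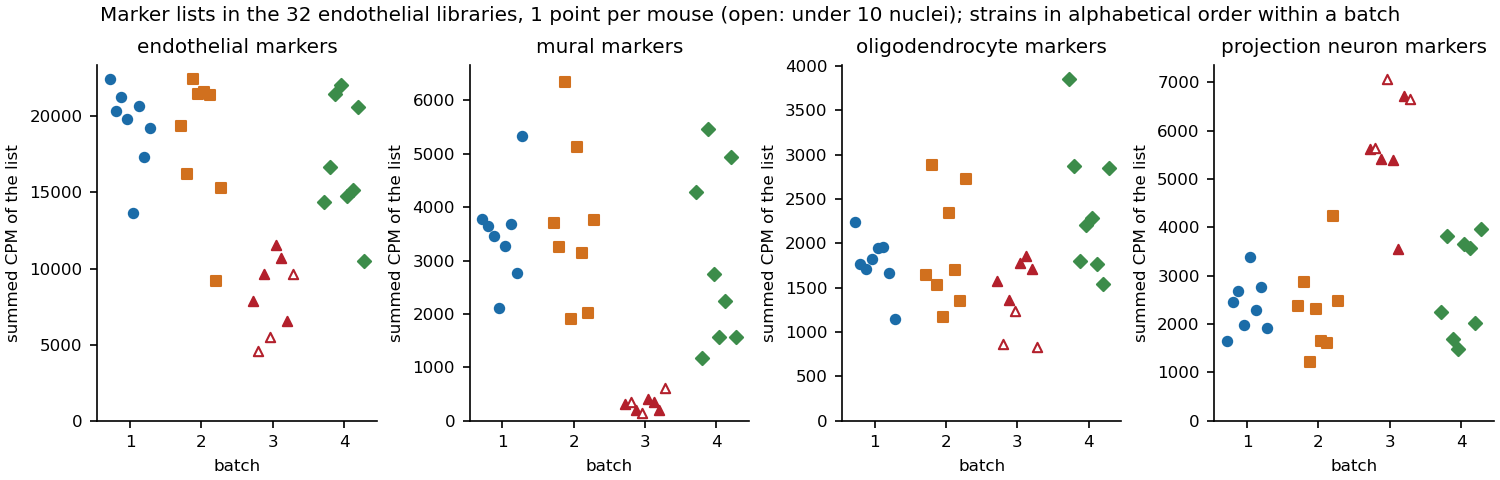
Summed markers of endothelial, mural, oligodendrocyte and projection neuron cells in the 32 endothelial libraries, in CPM on linear axes from 0, by batch, with 1 point per mouse and open points for libraries under 10 nuclei. Batch 3 lies low for endothelial markers, lowest for mural markers (138 to 612 CPM) and high for projection neuron markers (3551 to 7058 CPM).

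Across the 18 clusters, Pmaip1 and Ctla2a had their highest pooled level in endothelium. Pmaip1 was at 52.5 CPM over all endothelial nuclei, per mouse from 0 to 466 CPM with a median of 18.3 CPM. The next clusters, fibroblasts at 3.94 CPM and macrophages at 3.01 CPM, rested on 1 and 12 counts. In Drd1+ neurons, the largest cluster, 8 counts gave 0.0769 CPM, and astrocytes and 7 other clusters had none. Ctla2a was at 669 CPM in endothelium, per mouse from 74.4 to 3340 CPM with a median of 403 CPM, and at most 15.8 CPM in any other cluster, in fibroblasts on 4 counts.

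Itih5 was led by fibroblasts, at 1355 CPM pooled and 781 to 2720 CPM in the 2 mice with enough of these nuclei. Endothelium was second at 240 CPM (18.6 to 520 CPM per mouse), then mural cells and astrocytes, both at 77.5 CPM, ependyma at 55.0 CPM, the cluster annotated Polydendrocyte/Oligodendrocyte (called polydendrocytes here, a name for oligodendrocyte precursors) at 42.5 CPM and oligodendrocytes at 22.5 CPM. Neurons held little: Drd1+ neurons were at 1.77 CPM, and the Chat+ cluster at 0. Frmd5 was led by oligodendrocytes at 2825 CPM, whose lowest mouse (2435 CPM) was above the highest endothelial mouse (1333 CPM). Endothelium stood at rank 8 of 18 for Frmd5 with 408 CPM, beside Drd2+ neurons at 414 CPM and Drd1+ neurons at 386 CPM, and astrocytes were lowest at 47.2 CPM.

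Nxpe4 and Prorp were spread over many clusters. Endothelium was highest for Nxpe4 at 136 CPM pooled, but its mice ran from 6.86 to 435 CPM with a median of 61.7 CPM, and it overlapped the next clusters, among them Slc17a7+ neurons at 91.9 CPM, ependyma at 87.6 CPM and astrocytes at 81.2 CPM. Macrophages were lowest at 9.78 CPM. Prorp was at 47.0 CPM in endothelium with a median mouse of 18.7 CPM. The next clusters were Unknown_2 at 34.6 CPM, on 7 counts, Unknown at 34.5 CPM, on 68 counts, and macrophages at 29.1 CPM, on 116 counts. The pooled endothelial level was over that of the median mouse for all 6 genes.

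**Figure D3:**
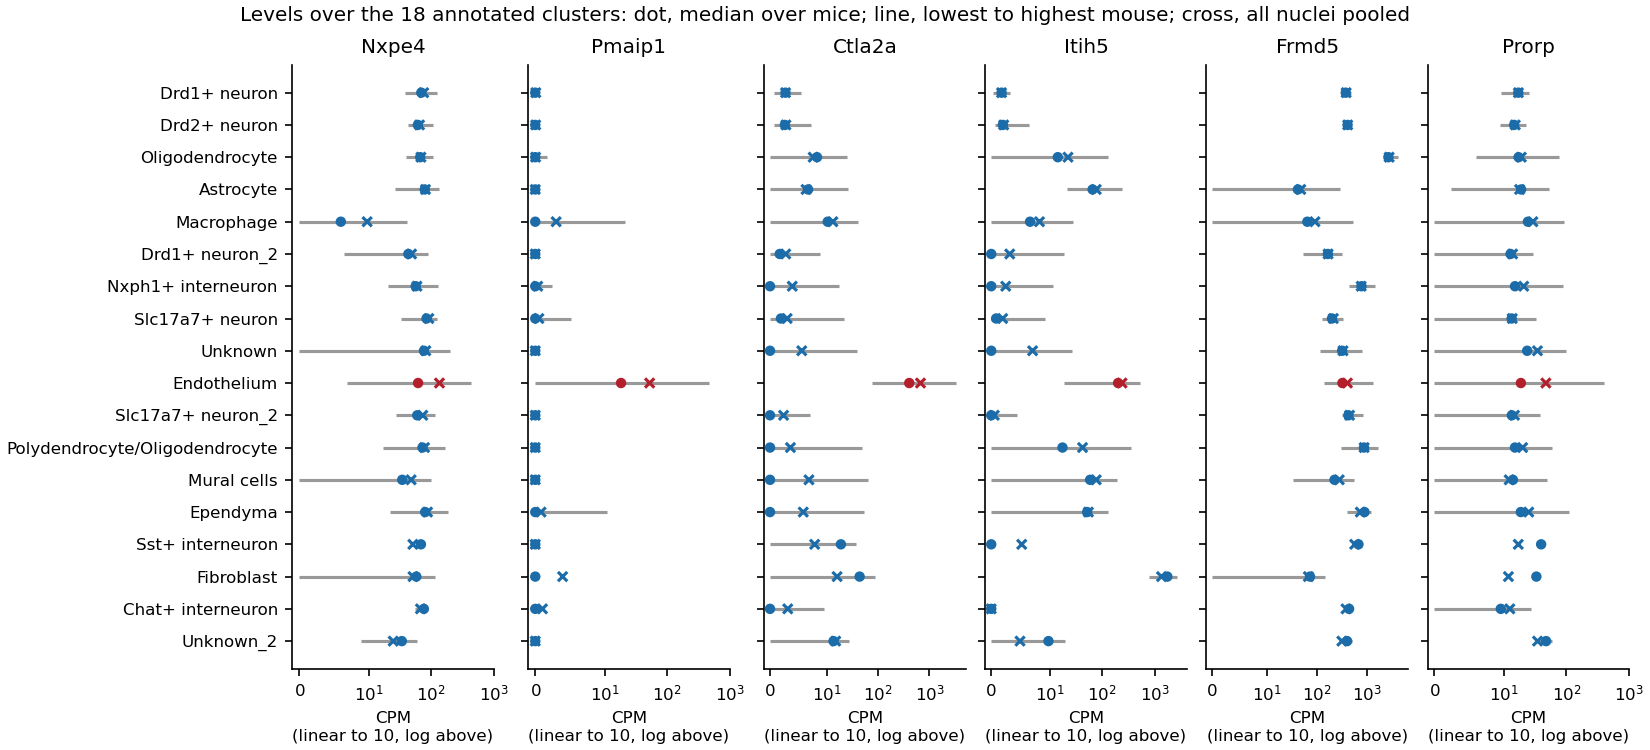
Level of each gene in the 18 clusters, in CPM on an axis that is linear to 10 and logarithmic above; the dot is the median over mice, the line runs from the lowest to the highest mouse, the cross is the level over all nuclei pooled, and endothelium is in red. Pmaip1 and Ctla2a stand out in endothelium, Frmd5 in oligodendrocytes and Itih5 in fibroblasts, while Nxpe4 and Prorp overlap across clusters.

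Outside endothelium the strain term of these genes had no part in their choice and was tested in the 8 other clusters with at least 3 mice of every strain. Pmaip1 passed the filter on low counts in none of them and was not tested. In oligodendrocytes all 4 members that passed the filter were called, where 34.8% of all genes were called. In astrocytes 1 of 4 was called (all genes, 21.5%), in Drd1+ neurons 2 of 4 (61.7%) and in Drd2+ neurons 2 of 3 (55.9%). The smaller Drd1+ cluster (annotated Drd1+ neuron_2) had 1 of its 2 tested members called (17.3%). With so many genes varying by strain in the neurons, the counts there are near the background and say nothing particular about the members. No member was called in macrophages (1 tested, 24.8% of all genes called), Nxph1+ interneurons (2 tested, 1.53%) or polydendrocytes (2 tested, 1.24%). By unadjusted edgeR p under 0.05 the counts there were 0, 0 and 1, and by DESeq2 adjusted p 0, 0 and 1. That 1 was Itih5, which passed the filter there through the WSB/EiJ libraries where it was high, so nothing is read from it.

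Among the calls of these genes outside endothelium, Itih5 in oligodendrocytes and astrocytes had the largest fitted spans, with other extremes than in endothelium. In oligodendrocytes the 4 WSB/EiJ mice had 67.1, 41.8, 134 and 105 CPM (86.9 ± 40.6 CPM), above every mouse of the other 7 strains, whose highest was at 38.7 CPM. C57BL/6, among the highest strains in endothelium, was lowest here at 6.85 ± 1.88 CPM (n = 4). The strain term had an adjusted p of 6.71e-09 in edgeR, with a fitted span of 3.59 on the log2 scale. In astrocytes WSB/EiJ was highest again, at 186, 79.8, 257 and 177 CPM (175 ± 72.9 CPM), 1 mouse of 4 overlapping other strains, and NOD/ShiLtJ lowest at 50.2 ± 15.4 CPM (adjusted p = 1.74e-06, span 1.79). In polydendrocytes WSB/EiJ stood at 423 ± 113 CPM (n = 3) and PWK/PhJ at 4.94 CPM, a fitted span of 4.68. Itih5 passed the filter there through the 3 WSB/EiJ libraries, on 7, 12 and 18 counts, and so had to differ, and its span is a description from which no test is read.

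Frmd5 kept CAST/EiJ as its highest strain in oligodendrocytes. CAST/EiJ mice had 3792, 3496, 4357 and 3439 CPM (3771 ± 420 CPM), NZO/HlLtJ followed at 3425 ± 208 CPM, and NOD/ShiLtJ was lowest at 2610 ± 87.9 CPM (n = 4 each). The strain term was called (edgeR adjusted p = 2.52e-09) with a span of 0.53. In Drd1+ neurons the span was 0.36 between 129S1/SvImJ and C57BL/6 (adjusted p = 0.000757). In Drd2+ neurons it was 0.34 (adjusted p = 0.00861), a call lost without the batch block (0.0624) and without batch 2 (0.115). In the smaller Drd1+ cluster CAST/EiJ was highest in the fit and NOD/ShiLtJ, at 90.5 CPM, lowest (adjusted p = 0.00228, span 1.39), lost without batch 2 (0.0725). Frmd5 did not pass in astrocytes (0.723), macrophages (0.361), Nxph1+ interneurons (0.491) or polydendrocytes (0.822).

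Prorp was highest in CAST/EiJ in oligodendrocytes as well, with 33.2, 39.8, 78.0 and 45.9 CPM (49.3 ± 19.9 CPM, n = 4), against an A/J mean of 17.0 ± 11.8 CPM and a PWK/PhJ mean of 14.4 ± 9.45 CPM. The strain term passed (edgeR adjusted p = 0.00133, span 1.54, at most 0.0475 over settings). In Drd1+ neurons, the cluster with the most nuclei, the lowest Prorp mean was 14.4 ± 3.58 CPM (C57BL/6), the highest 21.7 ± 3.33 CPM (NZO/HlLtJ), and the term did not pass (0.147), nor in Drd2+ neurons (0.300) or astrocytes (0.664).

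Nxpe4 varied by strain in both projection neuron clusters. In Drd1+ neurons WSB/EiJ was highest with 103, 89.5, 92.2 and 121 CPM (102 ± 14.4 CPM), NZO/HlLtJ and A/J followed at 95.3 ± 9.96 and 92.3 ± 14.2 CPM, and CAST/EiJ was lowest with 61.5, 56.0, 37.3 and 54.7 CPM (52.4 ± 10.5 CPM; edgeR adjusted p = 7.0e-06, span 0.93). In Drd2+ neurons WSB/EiJ was at 94.5 ± 8.49 CPM and CAST/EiJ at 53.2 ± 4.20 CPM, beside C57BL/6 at 53.6 ± 6.43 CPM, the lowest in the fit (adjusted p = 7.07e-10, span 0.83 from WSB/EiJ to C57BL/6). In oligodendrocytes the term passed (0.00751, NOD/ShiLtJ high, span 0.84) but not without batch 1 (0.330). It did not pass in astrocytes (0.121), the smaller Drd1+ cluster (0.0566) or Nxph1+ interneurons (0.598). Nxpe2 inside its span was called in Drd1+ (1.49e-05) and Drd2+ neurons (8.98e-06), also with WSB/EiJ highest, in clusters where most genes were called. Ctla2a was tested in Drd1+ neurons alone and did not pass (0.999).

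**Figure D4:**
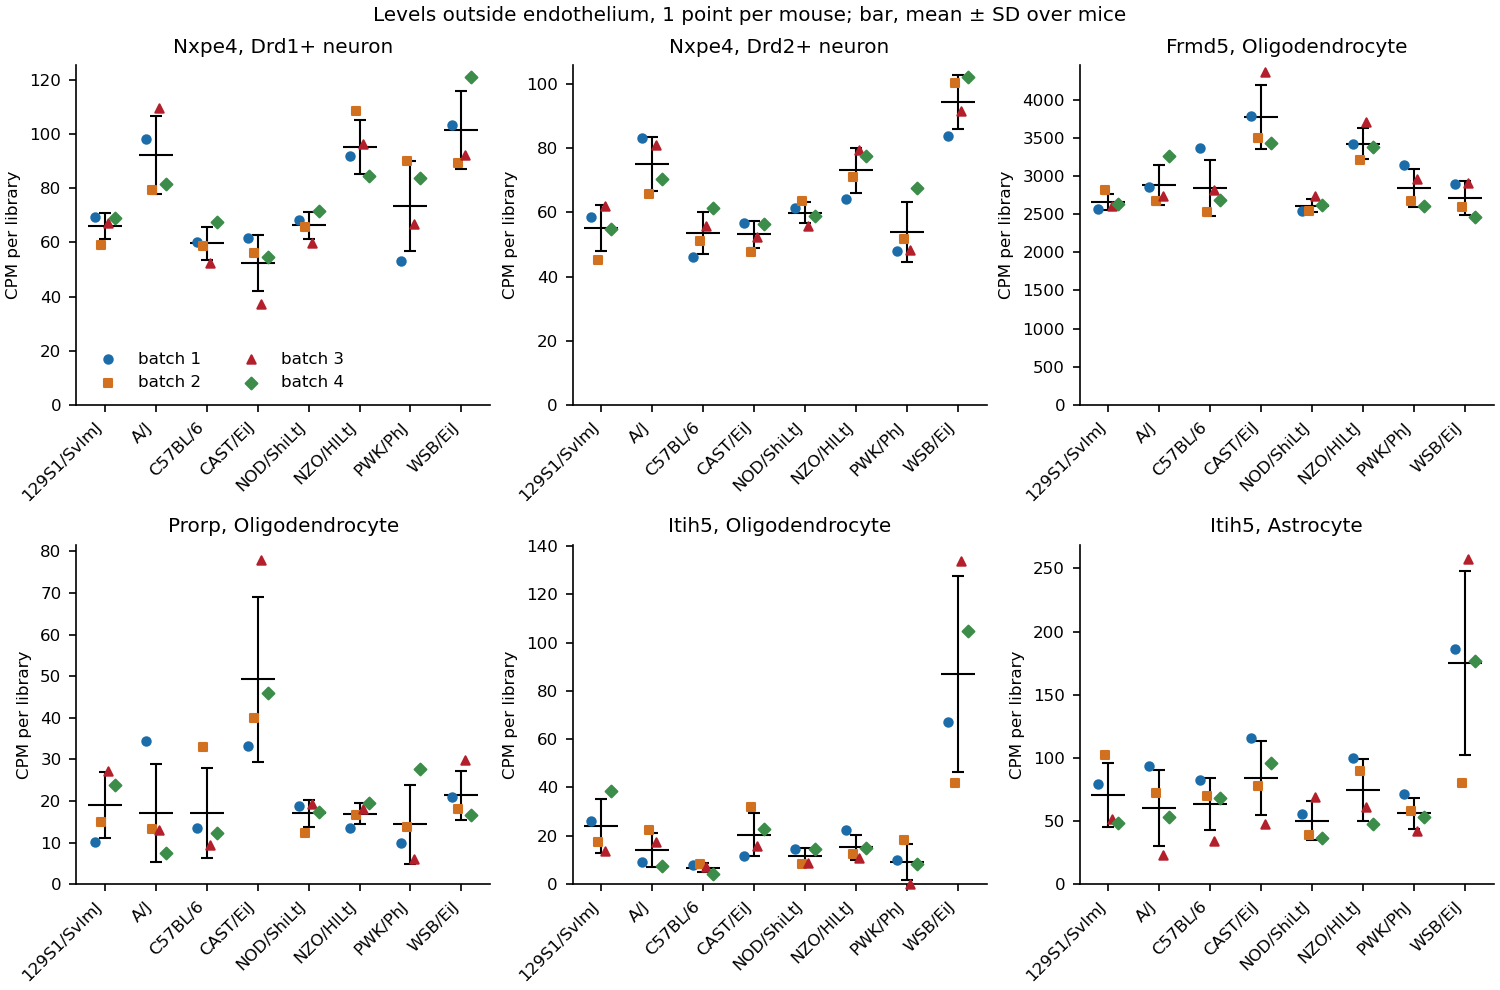
Levels by strain outside endothelium, in TMM-scaled CPM on linear axes from 0, with 1 point per mouse, shape and colour for the batch, and bars for the mean ± SD over 4 mice. Itih5 is highest in WSB/EiJ in oligodendrocytes (86.9 CPM) and astrocytes (175 CPM), Frmd5 and Prorp are highest in CAST/EiJ in oligodendrocytes, and Nxpe4 is lowest in CAST/EiJ in Drd1+ neurons.

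To see whether a gene's endothelial extremes held elsewhere, its highest endothelial strain was contrasted with its lowest in each other cluster where it was tested. Over 22 such contrasts, 2 passed in the direction of endothelium and 2 against it, and these counts were the same under each alternative setting run. The 2 in the endothelial direction were in oligodendrocytes. Frmd5 was higher in CAST/EiJ than in 129S1/SvImJ by 0.50 ± 0.08 (log2 difference ± SE, edgeR adjusted p = 4.08e-07, 14.7% of all genes called), in 4 of 4 CAST/EiJ mice above every 129S1/SvImJ mouse. Prorp was higher in CAST/EiJ than in A/J by 1.51 ± 0.32 (adjusted p = 2.38e-04, 16.1% of genes), with 1 A/J mouse at 34.3 CPM overlapping CAST/EiJ. Both log2 differences were smaller than the 2.35 and 4.47 of endothelium; the difference between clusters was not tested for endothelium, since the genes were chosen on it.

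The 2 against the endothelial direction were those of Nxpe4 in projection neurons. CAST/EiJ was below A/J by a log2 difference of -0.78 ± 0.14 in Drd1+ neurons (adjusted p = 1.02e-04, 31.1% of genes called) and of -0.48 ± 0.11 in Drd2+ neurons (adjusted p = 5.41e-04, 26.9%). In both clusters the 4 CAST/EiJ mice lay below the 4 A/J mice without overlap. In endothelium the same contrast was +3.86. In oligodendrocytes it was 0.13 ± 0.21 (0.768), in astrocytes 0.28 ± 0.22 (0.583, 7.88% of genes called), in the smaller Drd1+ cluster -0.41 ± 0.39 (0.664, 4.87%) and in Nxph1+ interneurons 0.33 ± 0.44 (0.872, 0.451%).

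The remaining contrasts did not pass. For Prorp, CAST/EiJ minus A/J was -0.08 ± 0.18 in Drd1+ neurons (0.790), -0.03 ± 0.20 in Drd2+ neurons (0.945) and 0.75 ± 0.44 in astrocytes (0.380). For Ctla2a, CAST/EiJ minus PWK/PhJ was 0.23 ± 0.38 in Drd1+ neurons (0.702, 27.3% of genes called), with a 95% interval from -0.51 to 0.97. For Itih5, 129S1/SvImJ minus CAST/EiJ was 0.28 ± 0.42 in oligodendrocytes (0.773), -0.40 ± 0.29 in astrocytes (0.512, 7.2% of genes) and -1.71 ± 1.25 in polydendrocytes (0.897, 0.0476%). For Frmd5, CAST/EiJ minus 129S1/SvImJ was -0.12 ± 0.07 in Drd1+ neurons (0.269, 27.6%), -0.17 ± 0.08 in Drd2+ neurons (0.119, 23.6%), 2.08 ± 0.85 in macrophages (0.158, 8.97%) and 0.34 ± 0.25 in the smaller Drd1+ cluster (0.594, 4.09%). It was 0.40 ± 0.27 in Nxph1+ interneurons (0.684, 0.326%), 1.06 ± 0.80 in astrocytes (0.550) and -0.08 ± 0.47 in polydendrocytes (0.991). The p-values in this paragraph are edgeR's, adjusted over all genes of the cluster.

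**Figure D5:**
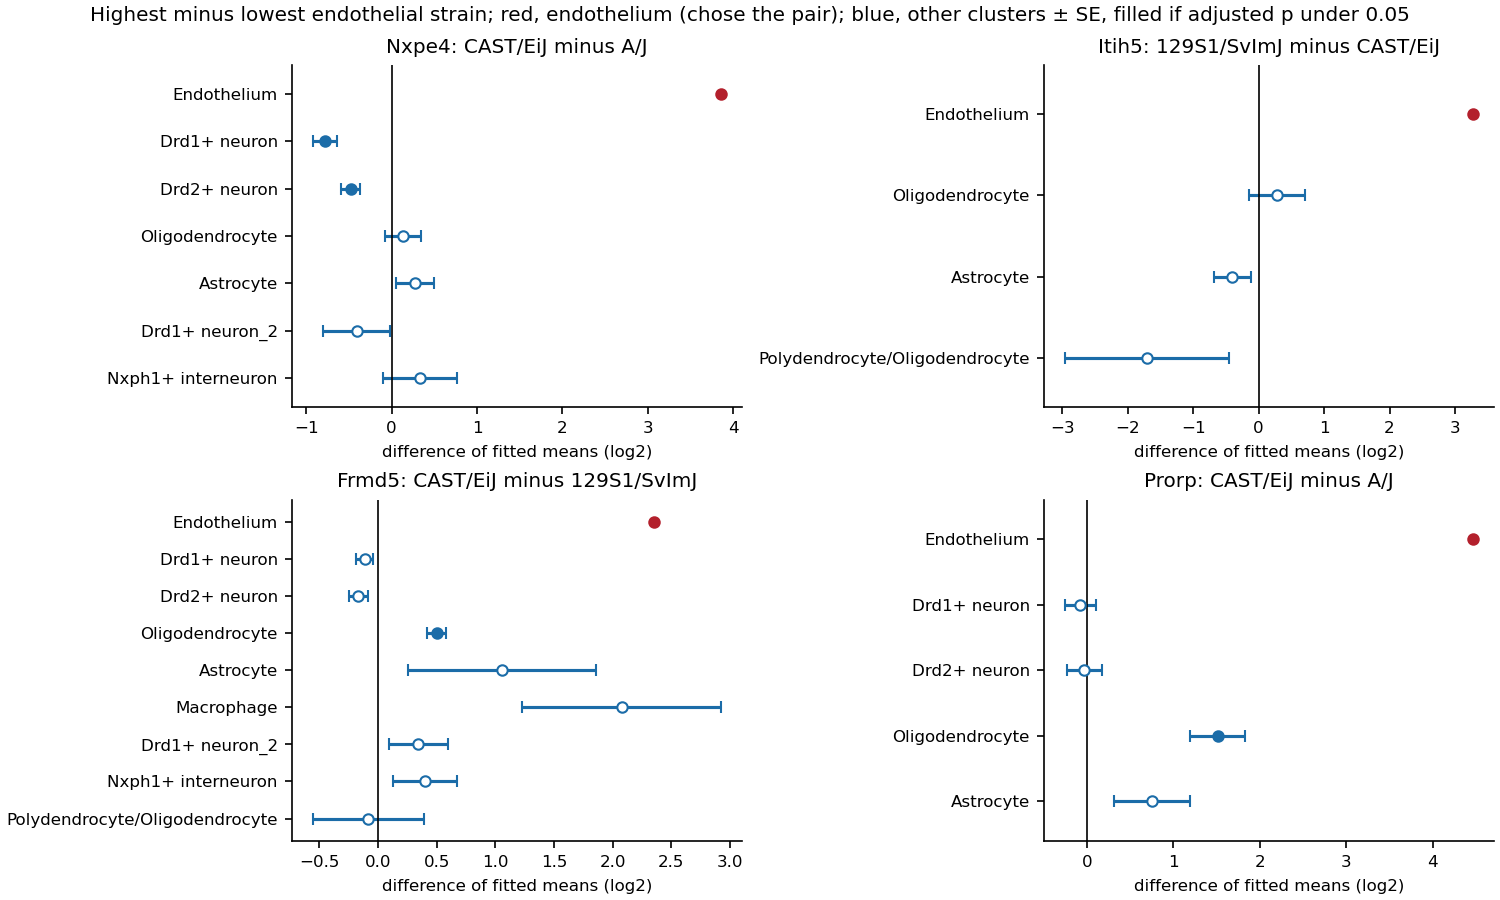
Fitted difference between the highest and the lowest endothelial strain of Nxpe4, Itih5, Frmd5 and Prorp, in log2 units, with endothelium, which chose the pair and has no test, in red; blue points are the other clusters with bars of ± SE, filled where the adjusted p was under 0.05. Nxpe4 lies below 0 in Drd1+ and Drd2+ neurons (-0.78 and -0.48), and Frmd5 and Prorp lie above 0 in oligodendrocytes (0.50 and 1.51).

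Whether a member's strain differences varied between clusters was tested by the interaction of strain and cluster, with Drd1+ neurons as the common partner and the mouse as a block. Between Drd1+ and Drd2+ neurons none of 4 members passed (edgeR; all genes, 4.58%), and 2 had an unadjusted p under 0.05, Nxpe4 (adjusted p = 0.280) and Frmd5 (0.308). Itih5 was too low in Drd1+ neurons (1.77 CPM) to pass the filter there and entered the tests with glia through the glial cluster, and Ctla2a entered through Drd1+ neurons alone, so both are left out of the counts that follow. Between Drd1+ neurons and oligodendrocytes all 3 members that passed the filter in both clusters were called (all genes, 16.9%), Nxpe4 (adjusted p = 4.10e-04), Prorp (0.00289) and Frmd5 (0.0125). Frmd5 was lost without batch 1 (0.173) and batch 4 (0.0824), and Prorp without batch 4 (0.0503). Between Drd1+ neurons and astrocytes 1 of these 3 was called (all genes, 11.4%), Nxpe4 (0.00780), a call lost without batch 2 (0.212). The 3 tests share the Drd1+ libraries.

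The lists of related genes were built with the members' families in view. Of 94 genes in the BCL2 family, the cathepsins and Ctla2 genes, FERM-domain genes (with Rock1 and Ctnnd1, which hold no such domain), hyaluronan and inter-alpha-trypsin inhibitor genes, mitochondrial RNA processing and the NXPE family, 92 were in the matrices and 25 were tested in endothelium. The BCL2 list also held Trp53, and the NXPE list the neurexophilin genes Nxph1 to Nxph4, which are not members of those families. By strain 2 of the 25 were called, beside 3.23% of all genes. Before adjustment 7 of the 25 reached p under 0.05, beside 720 of all 4986 genes. Their median span was 0.93 log2, against 0.91 over all genes tested. One was Bcl2l1, the anti-apoptotic Bcl-xL, at 494 ± 135 CPM in CAST/EiJ and 138 ± 51.4 CPM in NZO/HlLtJ (edgeR adjusted p = 0.0401). The other was Epb41l3, a FERM-domain membrane skeleton protein, at 217 ± 136 CPM in PWK/PhJ and 42.5 ± 7.25 CPM in CAST/EiJ (0.0492). Without the batch block 0 of the 25 were called, and leaving out a batch left 0 or 1. None of the 6 genes tested from the list of cathepsins and Ctla2 genes (Ctsh, Ctsb, Ctsz, Ctsl and the cathepsin inhibitors Cstb and Cst3) and neither of the 2 mitochondrial RNA processing genes tested passed there. No gene of the NXPE list, neurexophilins included, or of the hyaluronan list passed the filter.

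The genes whose endothelial level ran most like a member's, by Pearson's r of log2 CPM over the 29 libraries among 4977 genes, are given as a description, since the points share strain, library and batch. Ctla2a ran with the metallothioneins Mt1 (r = 0.88) and Mt2 (0.87), small metal-binding proteins. Itih5 ran with Ftl1 (0.85), the ferritin light chain, and Cp (0.80), the copper-carrying ferroxidase ceruloplasmin. Pmaip1 ran with Mdk (0.76), the growth factor midkine, and Selenop (0.75), a plasma selenium carrier. Frmd5 ran with Ftl1-ps1 (0.84), a pseudogene copy of the ferritin gene whose counts are uncertain for that reason, and Sfi1 (0.73). Ftl1 was lowest in CAST/EiJ (125 ± 57.1 CPM) and PWK/PhJ (133 ± 37.7 CPM), where Ftl1-ps1 was highest (395 ± 32.9 and 257 ± 138 CPM). Other strain means were 391 to 532 CPM for Ftl1 and 19.6 to 37.3 CPM for Ftl1-ps1. Reads can be split between such copies, so the Ftl1 level beside Itih5 is uncertain too. Prorp ran with B530045E10Rik (0.77) and Pmaip1 (0.74), and Nxpe4 with Prorp (0.64) and Fam3c (0.59).

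Genes next to the members were followed for the same strain order. Psma6, a proteasome subunit gene beside Prorp, was tested in endothelium and did not pass (adjusted p = 0.742). Ppp2r3c, which overlaps the 5′ end of Prorp, was tested in 4 other clusters and did not pass, with its lowest adjusted p in oligodendrocytes (0.0817, CAST/EiJ highest). Wdr76, a neighbour of Frmd5, was called in Drd1+ (0.00222) and Drd2+ neurons (0.0178) and not in oligodendrocytes (0.0939), where CAST/EiJ was its lowest strain and the highest of Frmd5. Ccbe1, the nearest coding gene before Pmaip1, was called in both neuron clusters, as were 61.7% and 55.9% of all genes there, a share at which the calls of Wdr76 and Ccbe1 say nothing particular, and where Pmaip1 itself had too few counts to test.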

How the data were processed

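The authors deposited raw counts per gene and barcode (whole UMI numbers, not normalized) for 4 batches, a table of categories per barcode (other: strain calls, filters, doublet calls, cluster names) and a list of accessible regions (other: positions, whose counts were not analysed here). The submitters' processing notes name bcl2fastq 2.20.0.422, Cell Ranger ARC 2.0.0 and mm10/GRCm38. Nuclei, doublet removal and cluster names were used as in the deposited table, without further filters.

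The members and gene lists were chosen with earlier results of these data known. Named genes were the 6 members, the called genes of the lists, neighbours, the 2 genes most like each member, and those ranked among, just above or just below the members; Ctla2b was added after its values were seen. Counts of a mouse's nuclei in a cluster were summed; libraries under 10 nuclei were left out, and 9 clusters had at least 3 mice of every strain. Batch counts of the kept nuclei ranged from 43538698 to 77698312, with median depths of 3232 to 4931 UMIs. Genes were filtered with filterByExpr by strain, scaled by TMM, and fitted by edgeR 4.0.16 (R 4.3.3) robust quasi-likelihood with strain (7 degrees of freedom) and batch. P-values were Benjamini-Hochberg adjusted within a cluster and called under 0.05. The interaction kept the mouse as a block. DESeq2 1.42.0 was an alternative. The code was tested on simulated data. Marker sums were compared by permutation (100000 resamples). A count of 0 allows up to 3 counts; intervals and such limits cover counting error only. No sample column was left unused.

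Batches pair the mice, per the labels, since each pooled 1 mouse of every strain, and batch is the block in the design. Residual deviations of same-batch mice had a median correlation of 0.23 over 112 pairs in Drd1+ neurons and 0.062 over 94 pairs in endothelium.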

Additional observations from a re-analysis of the deposited data

Results flagged for a closer look

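Nxpe4 in the NZO/HlLtJ endothelial library of batch 3 stood at 158 CPM, from 9 counts, apart from the other 3 mice of that strain at 32.6 to 53.0 CPM. It was the 1 outlying mouse among 30 strain groups of 4 in endothelium, where chance gives about 1 in 20 groups. Batch 3 was the shallowest batch.

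The strain differences of Nxpe4, Prorp and Frmd5 differed between Drd1+ neurons and oligodendrocytes by the interaction test in edgeR, with adjusted p-values of 0.000410, 0.00289 and 0.0125. Over the alternative settings these reached at most 0.0292, 0.0503 and 0.173. Between Drd1+ neurons and astrocytes the test passed for Nxpe4 (0.00780, up to 0.212 over settings). The same tests gave adjusted p-values of 1.29e-06 (oligodendrocytes, up to 0.00512) and 0.0287 (astrocytes, up to 0.189) for Itih5. Nothing is read from these, since Itih5 did not pass the filter on low counts in Drd1+ neurons, at 1.77 CPM, and entered through the glial cluster alone.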

How the results depend on the processing

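The 6 fitted endothelial spans kept their direction under the settings run; taken as a mean over nuclei the span of Nxpe4 was 4.91 and that of Frmd5 2.82 on the log2 scale, and an alternative of 5 nuclei per library, chosen after seeing the data, gave no value for Pmaip1 and Prorp, which did not pass the filter there. Without the replicate block (batch), 1 member was called in Drd2+ neurons, 1 in polydendrocytes, 1 by the interaction of Drd1+ neurons and astrocytes, and 0 related genes in endothelium. With no expression filter 1 member was called in polydendrocytes and 8 related genes in endothelium, with DESeq2 1 member in polydendrocytes, and with 20 nuclei per library 1 related gene. Without the filter more genes were tested, and the share of all genes called under each setting is not given here. The 8 are therefore not set against the count with the filter. Leaving out 1 batch gave 1 to 2 members in Drd2+ neurons, 0 to 1 in the smaller Drd1+ cluster, 2 to 4 by the interaction of Drd1+ neurons and oligodendrocytes, 0 to 1 by that with astrocytes, and 0 to 1 related genes. These counts include Itih5, which is the polydendrocyte call and entered there through the WSB/EiJ libraries, and the interactions through glia, so nothing is read from its calls. No result reversed; the cause of each change was not tested, other than the fewer mice or genes a setting leaves. A minimum of 20 nuclei could not be run in polydendrocytes. The 851 endothelial nuclei, and 3 strains with 3 mice, limit the precision of these values.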
